A study of Mus musculus with 8 samples.

Results

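Cultured mouse spermatogonial stem cells exposed to nutrient restriction (NR) were compared directly with cells exposed to retinoic acid (RA). The comparison rests on the 2 NR and the 2 RA samples, 4 of the 8 RNA-seq samples of the study, and all 4 were taken by their treatment labels. All cultures were of spermatogonia from C57BL/6XDBA/2 mice, F1 hybrids in the study's methods, started from testes of pups 6 days old and treated for 2 days on irradiated feeder fibroblasts of outbred CF1 mice. RA cells received 100 nM of retinoic acid in complete culture medium, and NR cells received 10% complete medium with 90% Earle's balanced salt solution (EBSS), so that the growth factors of the medium were diluted together with its nutrients. No cells of this comparison received both treatments, and the vehicle-treated cells (Veh), 2 samples in complete medium, are given beside the values to show where an untreated culture lay. Feeder RNA is part of a bulk sample of such a culture, and each sample is described in the study as an independent biological replicate. The spread between replicates was small, with a biological coefficient of variation of 3.35% in the fit. Adjusted p values below are measured against this spread, and how far apart the replicate cultures were in origin was not tested.

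Retinoic acid is the signal that moves undifferentiated spermatogonia into differentiation in the testis. It binds nuclear receptors (RARs paired with RXRs) on response elements in DNA, and among the genes it turns on are those of its own breakdown (the Cyp26 enzymes) and *Stra8*, the gatekeeper of meiosis. Balanced salt solution, by contrast, starves cells of amino acids and growth factors, which is known to release FoxO factors, to raise autophagy and to slow the cell cycle. Undifferentiated spermatogonia are kept in culture by GDNF and FGF2, and they can be told from differentiating ones by *Zbtb16*, *Ret* and *Nanos2* on one side and *Kit* and *Stra8* on the other.

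Letters of known response elements were searched at the start sites of the genes on which the treatments differed. The promoters printed here, 250 bases before to 50 bases after the annotated start, run 5′ to 3′ on the strand of the gene and come from RefSeq (GRCm38.p6). For *Cyp26a1*, on the plus strand at chr19:37697558-37697857, the capitals mark the match to a retinoic acid response element, here AGTTCA, 5 bases and AGTTCA again, read on the opposite strand. It is shown because *Cyp26a1* was the only member of the retinoid list with a known promoter that held such a match.

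Cyp26a1: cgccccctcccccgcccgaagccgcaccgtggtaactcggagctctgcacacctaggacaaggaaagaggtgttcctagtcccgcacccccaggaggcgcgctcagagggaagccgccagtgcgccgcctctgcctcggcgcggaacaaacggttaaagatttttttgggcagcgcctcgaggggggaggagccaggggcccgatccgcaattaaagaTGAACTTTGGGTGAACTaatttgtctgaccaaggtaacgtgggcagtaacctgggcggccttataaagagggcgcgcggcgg

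The next 4 genes, all called higher in NR, were chosen among called members of the interferon list that hold a match to an interferon response element. The capitals mark the matches, GAAA, 2 bases and GAAA, all read on the opposite strand. The promoters lie on the plus strand at chr3:142620413-142620712 (*Gbp2*), chr3:142559794-142560093 (*Gbp3*), chr3:142530086-142530385 (*Gbp7*) and chr19:34607707-34608006 (*Ifit3b*).

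Gbp2: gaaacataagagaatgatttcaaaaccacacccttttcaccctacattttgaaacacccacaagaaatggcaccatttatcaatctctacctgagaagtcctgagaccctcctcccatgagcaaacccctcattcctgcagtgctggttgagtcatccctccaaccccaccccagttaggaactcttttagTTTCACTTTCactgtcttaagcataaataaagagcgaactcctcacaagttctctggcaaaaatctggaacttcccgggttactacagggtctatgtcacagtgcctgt
Gbp3: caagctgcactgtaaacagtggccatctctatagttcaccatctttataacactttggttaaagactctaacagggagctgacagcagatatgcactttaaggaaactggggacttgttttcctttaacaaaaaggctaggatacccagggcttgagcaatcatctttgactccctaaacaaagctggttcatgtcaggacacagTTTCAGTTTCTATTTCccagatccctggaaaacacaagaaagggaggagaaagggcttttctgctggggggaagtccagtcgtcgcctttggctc
Gbp7: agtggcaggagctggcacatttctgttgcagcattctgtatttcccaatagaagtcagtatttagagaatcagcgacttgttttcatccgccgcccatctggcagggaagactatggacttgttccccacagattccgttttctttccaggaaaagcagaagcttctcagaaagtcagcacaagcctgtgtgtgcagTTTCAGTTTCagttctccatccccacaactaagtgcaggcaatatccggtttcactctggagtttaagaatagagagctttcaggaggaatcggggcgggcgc
Ifit3b: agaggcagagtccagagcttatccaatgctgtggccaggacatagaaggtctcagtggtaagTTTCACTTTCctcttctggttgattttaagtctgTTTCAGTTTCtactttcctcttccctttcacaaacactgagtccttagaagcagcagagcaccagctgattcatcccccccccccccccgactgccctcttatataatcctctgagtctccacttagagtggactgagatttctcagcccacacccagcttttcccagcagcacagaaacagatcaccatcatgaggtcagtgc

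Promoters were known for 13288 of the 20470 tested symbols, and the retinoid element (AGGTCA or AGTTCA repeated after 5 or 2 bases, either strand) was in 6 of them (0.0452%). Of the 24 retinoid list members with a known promoter, *Cyp26a1* alone held it (4.17%). Besides *Cyp26a1* the 6 were *1810020O05Rik* (log2 fold change NR vs RA -2.82), *Ppbp* (-2.69), *Blvrb* (-1.09), *Stap2* (-0.72) and *Tnfsf13b* (0.51, adjusted p = 0.223). *Stap2* stood at -0.48 and -0.35 and no longer passed without NR replicate 1 or RA replicate 2. Of the 6, 4 were called lower in NR and none higher, against 5.62% and 6.87% of all tested genes. With only 6 genes this share is not read as a result about the element. The interferon element was in 487 of the 13288 promoters (3.66%) and in 19 of the 32 interferon list members with a known promoter (59.4%), 11 of them among the 14 called members. Under 80% of the called genes had a known promoter, so shares of promoters with a match are not read for the called genes as a whole, and a match is a description of letters, not a binding site.

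The treatments differed in a large part of the tested genes. Of 20477 tested genes, 5026 were higher in NR (24.5%) and 4873 lower (23.8%) at an adjusted p under 0.05, where the adjusted p is that of edgeR's quasi-likelihood test with Benjamini-Hochberg adjustment over all tested genes. With a fold change of at least 2 as well, the rule for a called gene here, 1406 genes were higher in NR (6.87%) and 1150 were lower (5.62%). The NR and RA samples did not overlap in 2555 of these 2556, which the thresholds themselves make likely. Among all tested autosomal genes, 14469 of 19648 did not overlap either. A change of at least 8-fold was found for 132 genes higher and 143 lower in NR. The median log2 fold change of all tested genes was -0.005, so the medians of gene groups given below can be read against a value close to 0. When libraries were scaled by their totals alone, 40.7% of the genes that passed were higher in NR, against 50.8% here, and the median of all genes was -0.074. Values are CPM (counts scaled to a common library size) in the order of the replicates, and a log2 fold change is that of NR over RA throughout, with its standard error (SE). The samples held between 19261333 and 27883333 counts.

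**Figure D1:**
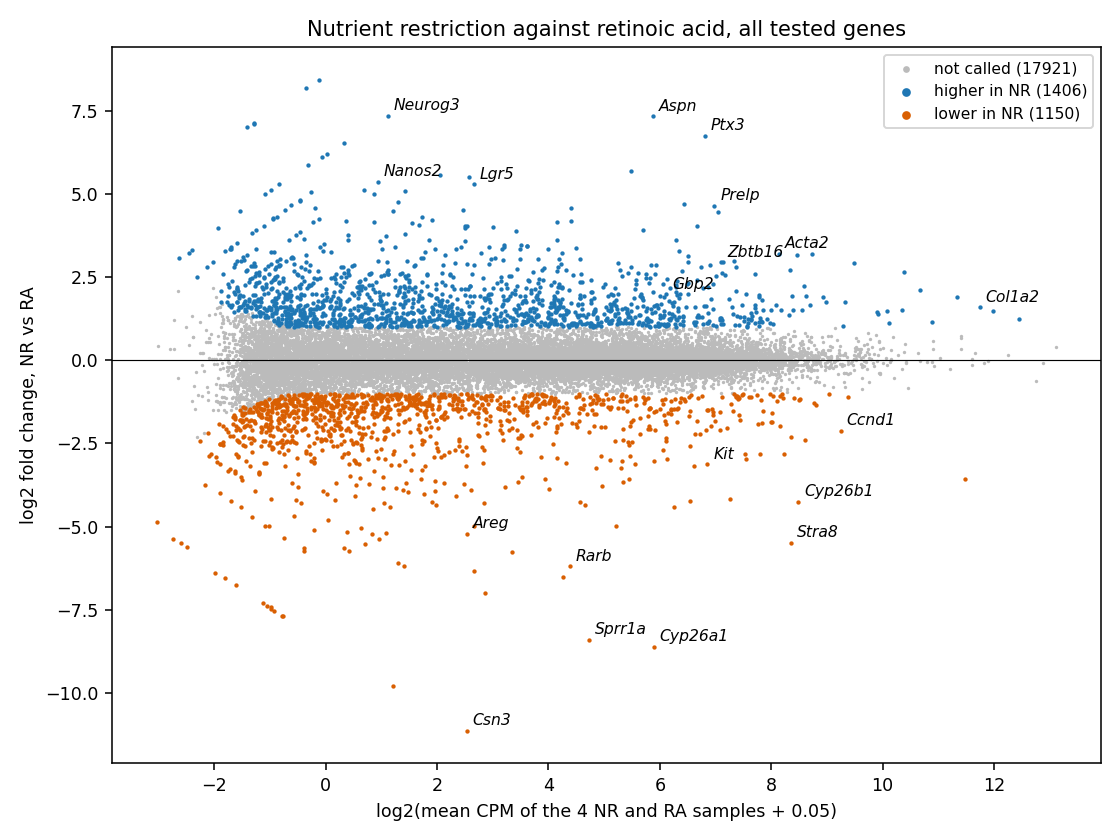
Log2 fold change NR vs RA (y axis) against the log2 mean CPM of the 4 samples (x axis) for 20477 tested genes, 1 point each. Blue marks the 1406 genes called higher in NR, orange the 1150 called lower and grey the rest, and called genes are found over the whole range of expression.

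Genes of secreted and matrix proteins were among those highest in NR relative to RA. *Aspn*, which encodes the small leucine-rich proteoglycan asporin (chr13:49544443-49567565), had 117.7 and 115.7 CPM in NR, 0.408 and 0.936 in RA and 1.58 and 1.3 in Veh. The NR samples were thus far above all others, and the log2 fold change was 7.33 (SE 0.121, adjusted p = 1.44e-25). Without RA replicate 2 it was 8.14. *Ptx3*, a secreted pattern-recognition protein (chr3:66219910-66225805), had 215.3 and 228.3 CPM in NR against 2.5 and 1.77 in RA and 7.03 and 7.24 in Veh. Its log2 fold change was 6.74 (SE 0.0898, adjusted p = 3.65e-27). *Lgr5*, a receptor for R-spondins and a Wnt target (chr10:115450311-115587780), was below 1 CPM in both RA and both Veh samples and at 11.7 and 12.9 CPM in NR (log2 fold change 5.29, SE 0.254). Of the other genes ranked highest by the naming rule, *Lrrc17* (5.70), *Sfrp4* (5.56), *Ccn5* (4.71), *Prelp* (4.64), *Adamts5* (4.47) and *C1qtnf3* (4.18) encode secreted proteins. *Dppa3*, a gene of primordial germ cells and early embryos, stood at 5.25 and 4.97 CPM in NR, 0.153 and 0.139 in RA and 1.78 and 1.09 in Veh (log2 fold change 5.09). *Adcy10* (4.51), the soluble adenylyl cyclase, *Rtl3* (5.51), *Cbr2* (4.31), *Ly6g6e* (4.23, with 18% of its exon bases shared with *Ly6g6d*) and *Lbhd2* (4.77, or 5.43 without RA replicate 2) complete the 15.

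Retinoid response genes and genes known from skin and milk were among those highest in RA relative to NR. *Cyp26a1* (chr19:37697798-37701536), the main enzyme of retinoic acid breakdown, whose promoter is printed above, had 118.4 and 118.1 CPM in RA against 0.241 and 0.342 in NR and 0.495 and 0.417 in Veh. RA alone was high, and the log2 fold change was -8.61 (SE 0.122, adjusted p = 1.09e-26). *Csn3* (chr5:87925579-87932665), the milk protein kappa-casein, had 0 counts in both NR samples and 10.7 and 12.3 CPM in RA, which makes it at least 89.2-fold lower in NR when 3 counts per library are taken as the floor. *Lce3a*, a gene of the cornified envelope of skin, was also at 0 in both NR samples and at least 34.9-fold lower. *Btn1a1*, a protein of milk fat globules (-6.33), had 13.2 and 11.7 CPM in RA and 0.337 and 0 in NR, and its value was -11.27 without NR replicate 1 and -5.18 without NR replicate 2. *Stra6*, the receptor that takes up retinol (-6.53, or -7.58 without NR replicate 2), *Sprr1a* (-8.42, with -9.34 and -7.75 when NR replicate 1 or 2 was left out) and *Sprr2h* (-7.00, or -8.07 without NR replicate 2) were likewise below 1 CPM in NR. For *Sprr2h* the log2 fold change over Veh was -5.55 in NR and 1.46 in RA. *Stra8*, described below, was lower by 5.48 on the log2 scale at a far higher level of expression (adjusted p = 1.45e-29).

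A second kind of gene was low in NR and much closer to Veh in RA. *Areg*, the EGF receptor ligand amphiregulin, had 0.385 and 0.228 CPM in NR, 11.3 and 11.2 in RA and 12 and 11.8 in Veh, a log2 fold change of -5.22 (SE 0.219) for NR vs RA and of -0.08 (adjusted p = 0.597) for RA vs Veh. *Chrna1*, a subunit of the muscle acetylcholine receptor (-5.77), and *Mmp10*, a matrix metalloproteinase (-4.98), were likewise far lower in NR than in the other groups, with 2.31 and 2.24 CPM of *Mmp10* in NR, 70.2 and 73.6 in RA and 58.1 and 63 in Veh. RA was above Veh for *Mmp10* (0.25, adjusted p = 0.00109). For these genes the NR samples stood apart from the other 4. *Ptpn22* (-4.98), a phosphatase of lymphocyte signalling, fell from RA over Veh to NR.

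**Figure D2:**
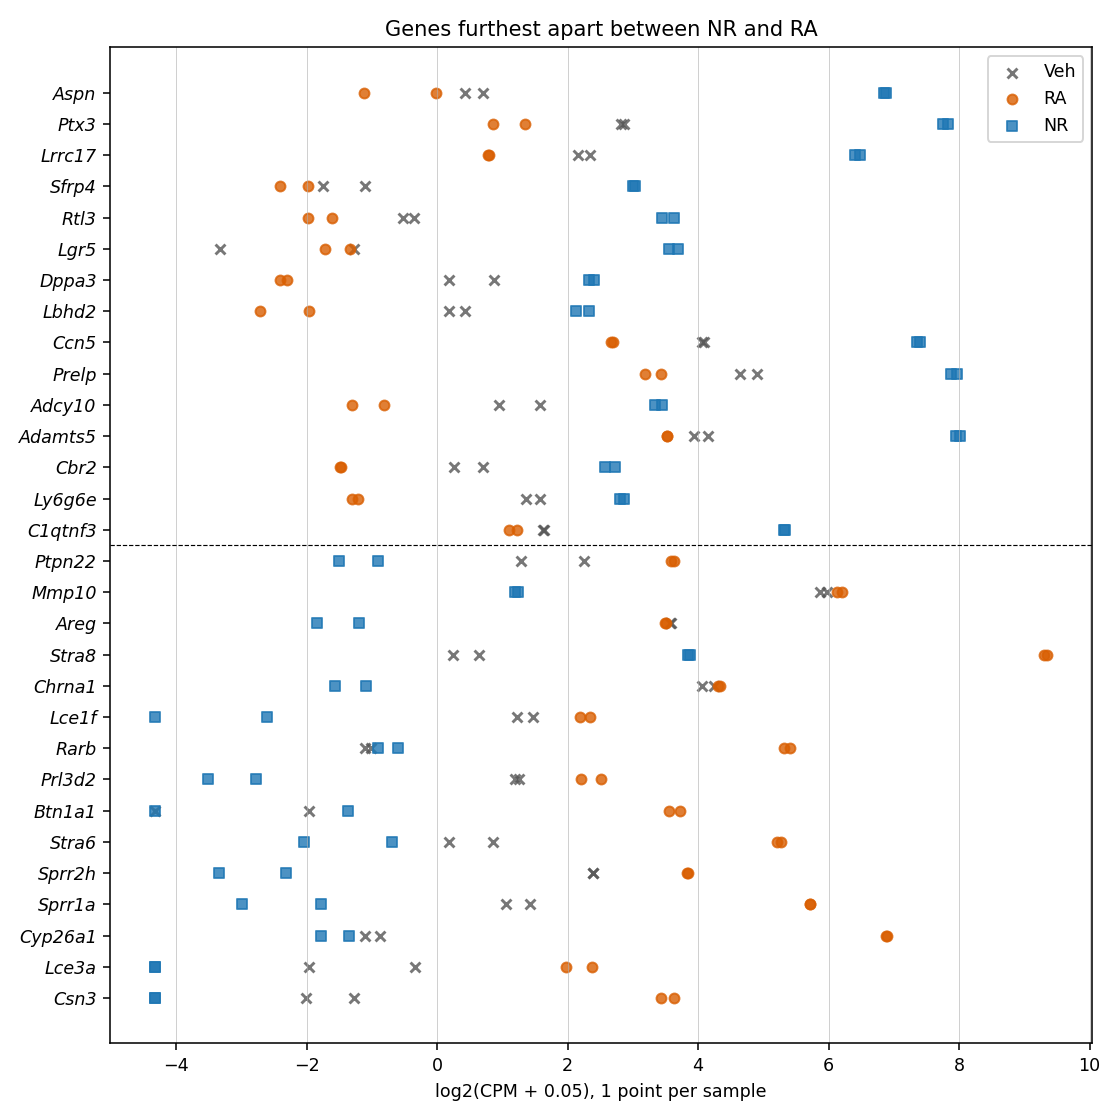
Expression of the 15 genes highest (above the dashed line) and the 15 lowest in NR relative to RA, as log2(CPM + 0.05) on the x axis with 1 point per sample (crosses Veh, circles RA, squares NR). Only genes whose NR and RA samples do not overlap were eligible for this plot. Veh lies close to RA for *Areg*, *Chrna1* and *Mmp10* but close to NR for *Cyp26a1* and *Rarb*.

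Genes of retinoid breakdown and most retinoid response genes were lower in NR, while enzymes of retinoid synthesis and storage went both ways. Of 34 members, 18 were lower in NR (14 of them called) and 8 higher (1 called), with a median of -0.53. The called lower members were 41.2% of the list, against 5.62% of all tested genes. All 3 enzymes of breakdown were lower. *Cyp26b1* had 713.3 and 647.5 CPM in RA, against 36.8 and 35 in NR and 125.1 and 119.2 in Veh, so that NR lay below Veh and RA above it (log2 fold change -4.25, SE 0.0545, adjusted p = 2.16e-27). *Cyp26c1* had 7.19 and 7.28 CPM in RA and 0.385 and 0.532 in NR (-3.94). Among proteins that carry or take up retinoids, *Crabp2* (-1.37), *Crabp1* (-1.02) and *Stra6* were called lower in NR and *Fabp5* was higher (0.66).

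Among the nuclear receptors only *Rarb*, itself a target of retinoic acid, was called. It had 42.2 and 39.8 CPM in RA against 0.482 and 0.608 in NR and 0.446 and 0.417 in Veh (-6.20, SE 0.139), although 38.4% of its exon bases are shared with *Top2b* on the opposite strand. *Rxra* (0.72) and *Rarg* (0.51) were higher in NR, while *Rara* (0.10, adjusted p = 0.171) and *Rxrb* (-0.02, adjusted p = 0.846) did not pass. The enzymes that make or store retinoids were mixed, with *Dhrs3*, which turns retinal back into retinol, at 130.4 and 117.8 CPM in RA and 17 and 15 in NR (-2.96, SE 0.0685). *Dhrs9* (-2.10) was lower, *Aldh1a1* (1.35) higher, and *Aldh1a3* (0.70) and *Rdh10* (0.43) were higher by less than 2-fold. Of 10 response genes 6 were lower in NR, among them *Hoxb1* (-3.52), *Cdx1* (1 count in NR, with a 95% exact counting interval of 10.6 to 2456 for the ratio of RA to NR, and log2 values of -8.05, -4.64 and -5.05 without NR replicate 1, NR replicate 2 or RA replicate 1), *Nrip1* (-1.15) and *Tgm2* (-0.88), and *Meis2* alone was higher (0.59).

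The state of the spermatogonia differed in the same samples. *Zbtb16*, which encodes PLZF, the transcription factor that maintains undifferentiated spermatogonia, had 238.7 and 248.8 CPM in NR, 31.8 and 31.8 in RA and 171.2 and 156 in Veh. It was high in NR and Veh and low in RA only (log2 fold change 2.94, SE 0.0564, adjusted p = 3.07e-24). *Nanos2*, an RNA-binding protein of the most undifferentiated cells, had 3.71 and 3.53 CPM in NR, 0.153 and 0.0347 in RA and 3.37 and 3.54 in Veh (5.36, or 6.51 and 4.51 without RA replicate 1 or 2, with 49% of its exon bases shared with *Gm45058*). *Nanos3* (3.47), *Lhx1* (2.79), *Id4* (2.40) and *Ret*, the signalling receptor for GDNF (1.85), were also higher in NR. *Lhx1* had 29.6 and 33.1 CPM in NR, 5.25 and 4.02 in RA and 58.5 and 57.7 in Veh, so that here NR was above RA but below Veh.

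Of 30 genes of undifferentiated spermatogonia 19 were higher in NR (12 called) and 7 lower (1 called), with a median of 0.49. The called higher members were 40% of the list, against 6.87% of all tested genes. Transcription factors and RNA regulators held most of the difference, 11 of 16 and 4 of 4 being higher, while surface proteins were divided, 4 of 10 higher and 5 lower. The integrins *Itga6* (-0.63) and *Itgb1* (-0.38), *Epcam* (-0.45) and *Cd9* (-0.42) were lower in NR, and *Eomes* was the only called member that was lower (-1.62). *Etv5* and *Bcl6b*, targets of GDNF and FGF2 signalling, differed by 0.12 (adjusted p = 0.0647) and 0.17 (adjusted p = 0.0247), and *Bcl6b* no longer passed without NR replicate 1 (0.14), NR replicate 2 (0.18) or RA replicate 2 (0.13). Both were lower than in Veh in each treatment, with 109.2 and 112.1 CPM of *Etv5* in NR, 101.1 and 103 in RA and 187.7 and 171 in Veh. The summed level of the 30 genes was 2984 and 3013 CPM in NR, 2594 and 2544 in RA and 3658 and 3606 in Veh.

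Genes of differentiating spermatogonia did not move as a group. Their 15 members held 7 higher in NR (3 called) and 7 lower (6 called), with a median of -0.04 that was 0.01 without RA replicate 1. *Kit*, the receptor that marks the step to differentiation, had 212 and 202.7 CPM in RA, against 23.8 and 23.6 in NR and 6.34 and 6.31 in Veh, so that both treatments were above Veh and RA was 8.74-fold above NR (log2 fold change -3.13, SE 0.0536, adjusted p = 3.11e-25). Transcription factors of the list went the other way. *Sox3* had 48.6 and 49.7 CPM in NR, 17.1 and 15.8 in RA and 23.2 and 19.6 in Veh (1.59), and *Sohlh1* had 50.9 and 51.6 CPM in NR, 22.1 and 25.5 in RA and 25.9 and 23 in Veh (1.10). Both were highest in NR, as was *Neurog3*, a factor of spermatogonia close to differentiation, with 4.24 and 4.18 CPM in NR and 1 read in all of RA. The ratio of NR to RA for *Neurog3* has a 95% exact counting interval of 36.1 to 8086, its log2 value moved to 6.73 or 9.63 when RA replicate 1 or 2 was left out, and 16.3% of its exon bases are shared with *Fam241b*. *Sohlh2*, the partner of *Sohlh1*, was lower in NR (-0.82).

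**Figure D3:**
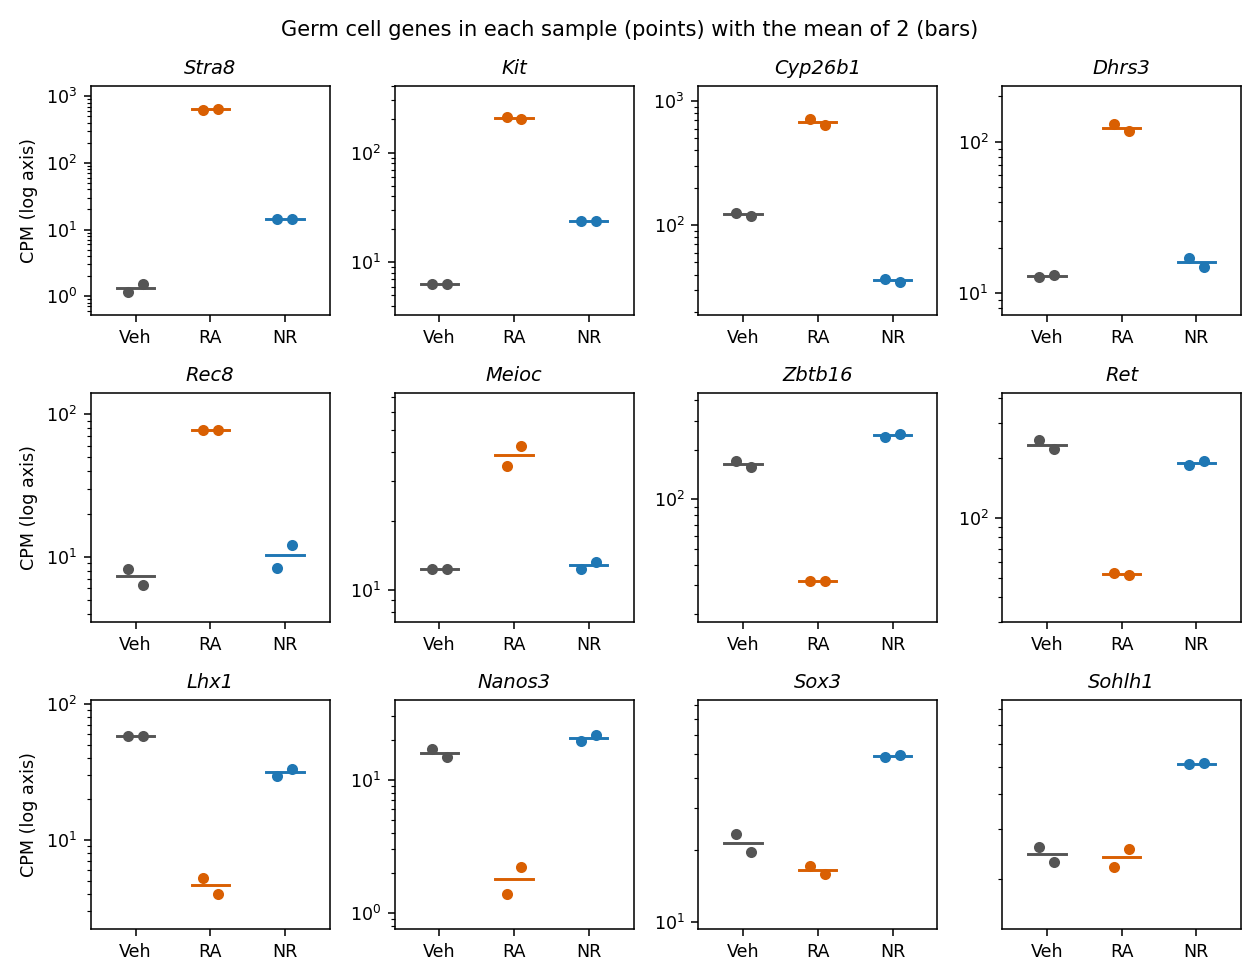
CPM on a log axis (y) of 12 germ cell genes in Veh, RA and NR (x), with 1 point per sample and a bar at the mean of 2. RA stands apart upward for *Stra8*, *Kit*, *Cyp26b1*, *Dhrs3*, *Rec8* and *Meioc* and downward for *Zbtb16*, *Ret*, *Lhx1* and *Nanos3*, while NR stands apart upward for *Sox3* and *Sohlh1*.

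Of the genes of meiosis, *Stra8*, *Rec8* and *Meioc* were called lower in NR and most structural ones differed little. *Stra8*, which starts the meiotic programme, had 631.6 and 653 CPM in RA, against 14.6 and 14.3 in NR and 1.14 and 1.51 in Veh. All 3 groups were apart, with RA 44.5-fold above NR (SE 0.0559 on the log2 scale) and NR above Veh by 3.44 on that scale. *Rec8*, the meiotic cohesin, had 78 and 77.4 CPM in RA, against 8.34 and 12.2 in NR and 8.27 and 6.31 in Veh (-2.89, SE 0.094). *Meioc*, which keeps meiotic cells in an extended prophase, had 34.8 and 42.7 CPM in RA, against 12.4 and 13.2 in NR and 12.3 and 12.3 in Veh (-1.61). *Gm4969*, known as Meiosin, did not separate the treatments (-0.11, adjusted p = 0.63), with 2.89 and 3.34 CPM in NR, 3.11 and 3.61 in RA and 1.14 and 0.938 in Veh.

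Of 8 entry factors 5 were lower in NR, with *Ythdc2* (-0.50) and *Rbm46* (-0.46) besides *Stra8*, *Meioc* and *Dazl* (-0.19, no longer passing at -0.15 without NR replicate 2 and -0.10 without RA replicate 2). Of 7 repressors of meiotic genes 5 were higher in NR, among them *E2f6* (0.72), *Pcgf6* (0.47) and *Max* (0.36), none of them by 2-fold, and *Rnf2* was lower (-0.49). *Zfp541*, a chromatin factor of meiotic cells that the study names, had 3.61 and 3.99 CPM in NR and 2.29 and 3.22 in RA (0.43, adjusted p = 0.0627, passing at 0.73 without RA replicate 2). The 15 axis and synaptonemal genes held 2 higher and 5 lower, with a median of -0.15 that became 0.02 without RA replicate 2. Only 2 were lower when NR replicate 1, NR replicate 2 or RA replicate 2 was left out or with DESeq2, and *Rec8* was the only one called. *Sycp3* had 19.5 and 19.9 CPM in NR and 18.2 and 21 in RA, with log2 fold changes over Veh of 0.99 and 1.00 (NR vs RA -0.01, adjusted p = 0.966), but 52.2% of its exon bases are shared with *Chpt1*. *Rad21l* was higher in NR than RA (0.55), with 8 and 8.01 CPM in NR, 4.49 and 6.17 in RA and 6.49 and 7.14 in Veh. Neither treatment passed against Veh for *Rad21l* (0.23 in NR and -0.32 in RA). *Sycp2* (0.33) was higher in NR too, no longer passing without NR replicate 2 (0.30) or RA replicate 1 (0.09). *Sycp1*, of the central region, had 73.9 and 101.8 CPM in the RA samples, and its value of -0.24 turned to 0.02 without RA replicate 2. *Hormad1* (-0.39) no longer passed without NR replicate 1 (-0.38), NR replicate 2 (-0.42) or RA replicate 2 (-0.13).

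Of 27 recombination genes 10 were lower in NR and 1 higher, with a median of -0.12. *Prdm9*, which sets the sites of meiotic breaks (-1.31), and *Rad51ap2* (-1.69) were called lower, 7.41% of the list against 5.62% of all tested genes. *Mei4* (-0.82), *Dmc1* (-0.65) and *M1ap* (-0.58) were lower by less than 2-fold. *Spo11*, which makes the breaks, had 2.31 and 2.58 CPM in NR and 2.55 and 2.05 in RA (0.12, adjusted p = 0.698), and the groups overlapped. The early meiosis genes that the study chose on these samples held 59 lower in NR and 29 higher, with 14 and 2 called and a median of -0.09. The called shares of that list were 8.48% and 1.21%, against 5.62% and 6.87% of all tested genes. That list is not independent evidence of a direction.

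**Figure D4:**
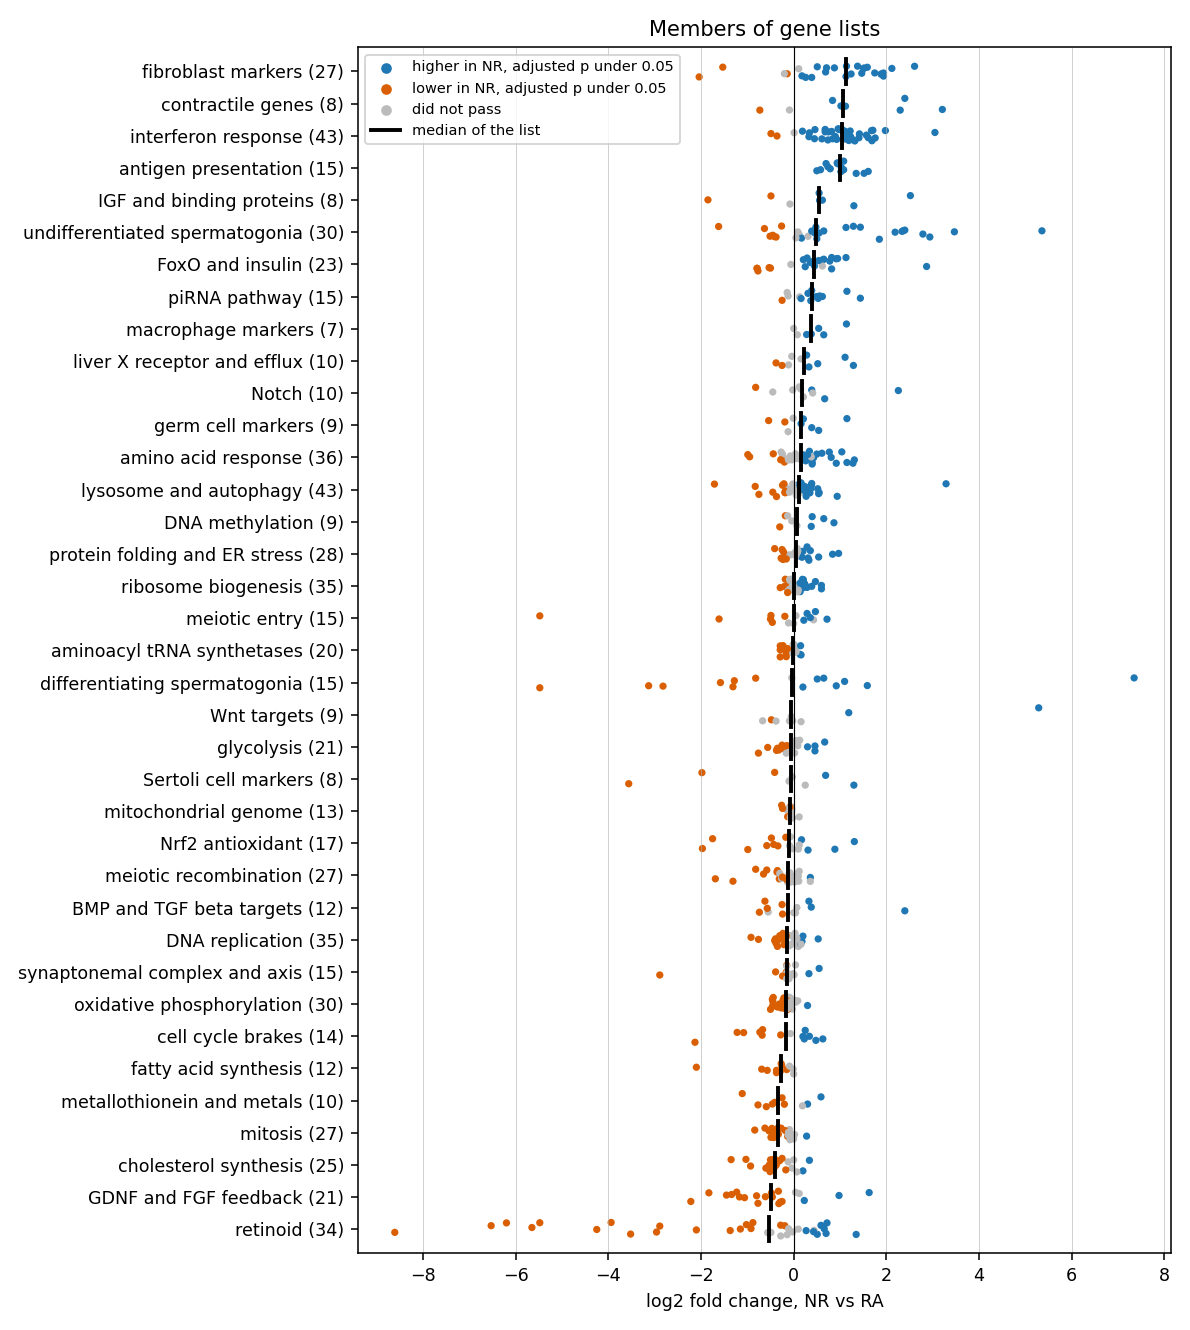
Log2 fold change NR vs RA (x axis) of the members of each gene list (rows, with the number tested), 1 point per gene, blue or orange where the adjusted p was under 0.05, and a black bar at the median. Fibroblast marker, contractile, interferon and antigen presentation lists have medians of 1.00 to 1.14, and the retinoid list reaches -8.61 with a median of -0.53.

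Genes that report GDNF, FGF and MAP kinase signalling were lower in NR. Of 21 members 16 were lower (7 called) and 3 higher (1 called), with a median of -0.48, the called lower members being 33.3% of the list against 5.62% of all tested genes. *Dusp4*, a phosphatase that limits ERK, had 30.4 and 30.3 CPM in NR, 82.9 and 83.5 in RA and 118.3 and 117.6 in Veh, rising in that order (-1.45, SE 0.0565). *Fosl1* (-2.22, with 57.2% of its exon bases shared with *Ccdc85b*), *Ier3* (-1.83), *Egr3* (-1.34), *Dusp5* (-1.23), *Etv4* (-1.17) and *Spred2* (-1.06) were called as well. *Egr2* went against the list, with 25.8 and 25.6 CPM in NR, 8.51 and 8.18 in RA and 38.2 and 32.6 in Veh (1.63). *Spry1* (0.98) and *Il17rd* (0.23) were higher in NR too. Against Veh the list's median was -1.01 in NR and -0.35 in RA. Both of these comparisons share the Veh samples, and neither is needed for the direct one.

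Among ligands that act on such pathways, *Hbegf* (-1.86), *Ereg* (-1.46) and *Areg* were called lower in NR, 3 of 9 EGF family ligands tested. The cytokines *Csf2* (-3.90), *Il11* (-2.65) and *Lif* (-2.44) were called lower and *Il6* higher (1.28), out of 10 genes of the IL6 family and the colony stimulating factors. *Lif* had 21 and 21.7 CPM in NR, 118.9 and 113.7 in RA and 108.6 and 105.3 in Veh, so that the NR samples were low and the other 4 were close to each other. *Igf1*, the growth factor, had 17.4 and 16 CPM in NR, 2.14 and 3.43 in RA and 2.63 and 2.61 in Veh (2.52), and *Igfbp4*, which binds it, was lower in NR (-1.85). The Notch ligand *Jag1* was higher in NR (2.26). These families of EGF, IL6 and Wnt ligands were looked at after their values were seen.

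The cell cycle was lower in NR by small amounts. *Ccnd1*, the D cyclin that growth factors induce, had 226.8 and 226 CPM in NR, 1001 and 974.3 in RA and 789.4 and 771.4 in Veh, the NR samples lying far below the other 4 (-2.13, SE 0.0389, adjusted p = 1.22e-24). *Ccnd2* (0.20) and *Ccnd3* (0.48) were higher in NR. Of 27 mitosis genes 18 were lower and 1 higher with none called, with a median of -0.33, as for *Plk1* (-0.62) and *Cdk1* (-0.42). Of 35 replication genes 18 were lower and 4 higher (2 higher without RA replicate 2) with none called, *Ccne1* (-0.92) and *Rrm2* (-0.76) being the furthest. Inhibitors of the cycle were divided, *Cdkn2b* (-1.22) and *Cdkn2d* (-1.08) being lower in NR and *Cdkn1b*, a FoxO target, higher (0.63). No list of cell cycle genes was at 2-fold by its median.

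Genes of starvation responses went both ways, with more of them higher than lower in NR. Of 23 FoxO and insulin genes 16 were higher (2 called) and 5 lower, with a median of 0.45. The called share of 8.7% was near the 6.87% of all tested genes. *Fbxo32*, a ubiquitin ligase that FoxO factors induce in starved muscle, had 99.9 and 101 CPM in NR, 14.5 and 13.2 in RA and 31.6 and 32.5 in Veh (2.87, SE 0.0661). NR was the highest and RA the lowest group. All 5 factors of the list, *Foxo1* (0.65), *Foxo3* (0.95), *Foxo4* (0.36), *Foxo6* (1.13) and *Bcl6* (0.78), were higher in NR, and the receptor *Igf1r* was too (0.92), while *Bcl2l11* (-0.77), *Pdk4* (-0.79) and *Arrdc4* (-0.79) were lower.

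Of 43 lysosome and autophagy genes 21 were higher in NR and 10 lower, with 1 called each way (*Rragd* and the autophagy gene *Atg9b*, -1.71) and a median of 0.12. The called shares of 2.33% each way were below those of all tested genes (6.87% and 5.62%), 13 were higher without RA replicate 2, and library totals gave 15 higher and 12 lower. Against Veh the median was -0.12 in NR and -0.26 in RA. *Rragd*, the Rag GTPase that recruits mTORC1 to lysosomes and is a target of TFEB, had 146.9 and 148.2 CPM in NR, 14.5 and 15.5 in RA and 97.8 and 93.9 in Veh, where RA stood apart (3.29, SE 0.0619, adjusted p = 1.91e-24). *Wipi1* (0.94) and *Lamp2* (0.52) were higher in NR, and *Tfeb* (-0.75) and the protease *Ctsl* (-0.83, with 26.8% of its exon bases shared with *Gm47123*) lower. Of 36 genes of the amino acid response 17 were higher (4 called) and 6 lower, with a median of 0.16. The called share was 11.1%, against 6.87% of all tested genes. Against Veh the median of this list was 0.03 in NR and -0.14 in RA. *Aldh1l2* (1.31), *Pycr1* (1.28), *Slc1a4* (1.15) and *Slc7a5* (1.04) were called, *Atf4* was higher by less (0.34), and *Asns*, a standard reporter of this response, was lower in NR (-0.20). The cystine transporter *Slc7a11* (-0.95) and the aminotransferase *Got1* (-0.99) were lower too.

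Genes of lipid synthesis and nuclear genes of respiration were more often lower than higher in NR. Of 25 genes of cholesterol synthesis 19 were lower (2 called) and 2 higher, with a median of -0.41. The called share of 8% was near the 5.62% of all tested genes. *Tm7sf2*, a sterol reductase, was among those called (-1.03). Of 12 genes of fatty acid synthesis 9 were lower and none higher, and *Scd1*, a desaturase, had 42.6 and 43.8 CPM in NR, 192.4 and 178.4 in RA and 94.6 and 95.6 in Veh (-2.10). *Abca1*, which exports cholesterol, was higher in NR, with 242.1 and 251.7 CPM against 102.3 and 100 (1.29). Of 30 nuclear genes of oxidative phosphorylation 18 were lower and 1 higher, none of them by 2-fold. Of 13 genes of the mitochondrial genome 4 were lower and 9 did not pass, with a median of -0.07 that became 0.00 when a GC and length trend was removed. Without NR replicate 2, RA replicate 1 or RA replicate 2 between 1 and 2 of them were lower, and 10 were under library totals. Of 17 antioxidant genes 8 were lower, *Srxn1* (-1.97) and *Nqo1* (-1.75) by over 2-fold, and *Sod2*, the mitochondrial superoxide dismutase, was higher (1.31).

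Ribosomal protein genes were higher in NR than RA, 59 of 85 passing upward and 5 downward with none at 2-fold and a median of 0.15. Against Veh their median was -0.11 in NR and -0.26 in RA, so that both treatments lay below Veh. Under library totals 36 were higher and 8 lower, with a median of 0.09. Of 35 genes of ribosome biogenesis 14 were higher and 5 lower, none of them called, with a median of 0.01, or 10 and 12 under library totals with a median of -0.06. Without NR replicate 2, 9 were higher and 1 lower, and 2 or 3 were lower without any other of the 4 libraries. Protein folding genes had a median of 0.06, or -0.01 under library totals, and glycolysis genes -0.06.

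Collagens and other matrix genes were higher in NR as a group. All 8 collagens on the list of fibroblast markers were called higher in NR, with a median of 1.74, and 10 of 11 other matrix genes were higher (6 called). *Col3a1* had 3902 and 4212 CPM in NR, 1140 and 1046 in RA and 1390 and 1402 in Veh (1.89, SE 0.0407, adjusted p = 3.88e-23). *Lox*, which crosslinks collagen, had 2669 and 2653 CPM in NR, 629.8 and 594.3 in RA and 720.5 and 837.5 in Veh (2.12). In both, NR was far above Veh and RA was below Veh by less. For the 8 collagens the median log2 fold change over Veh was 1.03 in NR and -0.63 in RA. *Ogn* (2.61) and *Postn* (1.75) were higher, and *Lum* did not pass (0.11, adjusted p = 0.132).

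Receptors and transcription factors of fibroblasts did not follow the matrix. Of 8, 4 were higher in NR (*Pdgfrb*, 1.51, called), 3 were lower (*Fap*, -2.04, and *Twist2*, -1.53, called) and the median was 0.02. For *Twist2*, 46.5% of its exon bases are shared with *Gm29100* on the opposite strand. Over the 27 fibroblast markers, 22 were higher in NR, 3 lower and 2 did not pass. Their summed level was 45427 and 47133 CPM in NR, 22930 and 21330 in RA and 28040 and 28268 in Veh, while the 8 receptors and factors summed to 1225 and 1238 CPM in NR and 970.3 and 931.1 in RA. The 9 germ cell markers tested summed to 1166 and 1135 CPM in NR and 1002 and 1082 in RA. In these bulk samples a different number of feeder or germ cells and a different amount of RNA per cell cannot be told apart, and the part of the feeder share in the results was not tested.

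Contractile genes, which fibroblasts express when activated, were higher in NR, 6 of 8 with 5 called and a median of 1.07. *Acta2*, smooth muscle actin, had 505.8 and 512.4 CPM in NR, 55.4 and 54.6 in RA and 80.6 and 79.5 in Veh (3.21, SE 0.0439, adjusted p = 5.3e-27). *Actg2* (2.40) and *Myl9* (2.30) were called as well, and *Tpm1* was lower (-0.73). Of 42 collagen genes in the genome's annotation that were tested, 21 were higher (16 called) and 6 lower (2 called, with 10 lower once a GC and length trend was removed), *Col12a1* (2.66) and *Col11a1* (2.57) being the furthest. Small leucine-rich proteoglycans (11 of 15 higher, none lower) and Adamts proteases (10 of 18 higher, 3 lower) had medians of 0.98 and 0.54. *Timp3*, an inhibitor of such proteases, was higher (2.72, with 21.3% of its exon bases shared with *Syn3*). *Adamts14*, which processes collagen, was lower (-2.04). These 4 families of matrix genes were looked at after their values were seen.

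Markers of other testis cells were also measured. Of 10 Sertoli markers, *Amh* and *Fshr* had too few counts to test, and *Clu*, at 85.4 and 75 CPM in RA and 6.26 and 7.14 in NR, made up most of the RA level of the list (-3.56). The 8 tested members summed to 54.4 and 58.9 CPM in NR and 114.7 and 104.7 in RA, and *Sox9* was higher in NR (1.30). *Cyp17a1*, *Hsd3b1* and *Insl3* of Leydig cells had too few counts to test as well. Of 7 macrophage markers 5 were higher in NR, with *Ptprc* called (1.14) and a summed level of 310.9 and 309.3 CPM in NR and 243.2 and 224.3 in RA. *Xist*, which is expressed mainly from cells with 2 X chromosomes, had 320.9 and 322.2 CPM in NR, 255.8 and 261.3 in RA and 182 and 223.1 in Veh, 1.24-fold higher in NR than RA (adjusted p = 4.52e-05). The 4 Y chromosome genes measured summed to 97.1 and 95.7 CPM in NR and 100.9 and 113 in RA.

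Interferon-stimulated genes and genes of antigen presentation were higher in NR almost without exception. Of 43 interferon genes 40 were higher (22 called) and 2 lower, with a median of 1.04, and all 15 antigen presentation genes were higher (7 called), with a median of 1.00. The called higher members were 51.2% and 46.7% of these lists, against 6.87% of all tested genes. *Gbp2*, a GTPase that interferon induces, whose promoter is printed above, had 113.2 and 107.7 CPM in NR, 30.4 and 26 in RA and 42.8 and 44.6 in Veh (1.98, SE 0.0664, adjusted p = 5.05e-19). *Iigp1* had 123.4 and 112 CPM in NR, 37.9 and 31.9 in RA and 30.1 and 32 in Veh (1.76). NR was above both other groups in each. *Gbp3* (1.69), *Gbp7* (1.68), *Ifit3b* (1.57) and *Ifit1* (1.32) were called too, although reads can be split between the members of the Gbp, Ifit and H2 families.

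*Ifitm1*, which is also a surface protein of early germ cells, had 2.8 and 2.12 CPM in RA, against 20.4 and 19.4 in NR and 14.2 and 12.5 in Veh (3.05). RA was far below Veh, and NR was above Veh by less. Of the signal transducers, *Irf7* (1.19) and *Stat2* (1.11) were among those called and the receptor gene *Ifnar1* did not pass (0.01, adjusted p = 0.922). *Ifit2* (-0.36) and *Ifi27* (-0.49) were the members lower in NR. The whole list summed to 6307 and 5974 CPM in NR, 3373 and 3149 in RA and 3749 and 3486 in Veh. In the list of antigen presentation, *Psmb9*, of the immunoproteasome (1.61), and *H2-T23* (1.52) were the furthest and *Nlrc5*, the activator of class I genes, was called (1.02). The fibroblast and macrophage sums given above were higher in NR in the same samples, and their part in the interferon genes was not tested.

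Chemokines were higher in NR, 18 of 25 with 13 called, against 4 lower with 2 called, and the median was 1.12. *Cxcl5*, which attracts neutrophils, had 644 and 630.5 CPM in NR, 73.9 and 68.4 in RA and 154.2 and 182.4 in Veh (3.17), the groups being ordered NR, Veh, RA. *Cxcl9* (4.17) and *Cxcl10* (2.29), both induced by interferon, *Ccl11* (2.86), *Cxcl12* (2.19) and *Cxcl1* (1.81) were called higher, and *Ccl6* (-1.65) and *Ccl12* (-1.35) lower. The chemokine family was looked at after its values were seen.

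Genes of skin differentiation and of placenta were higher in RA than NR at low levels. Of 13 small proline-rich (Sprr) and late cornified envelope (Lce) genes that could be tested, of 36 in the table, 11 were called lower in NR and 1 higher (*Sprr2b*, 2.44), with a median of -5.52. Against Veh the median was -3.93 in NR and 1.48 in RA, so that NR lay further from Veh than RA did. *Sprr1a* had 52.7 and 52.6 CPM in RA, against 0.241 and 0.0759 in NR and 2.63 and 2.03 in Veh, falling from RA over Veh to NR (-8.42, SE 0.179, with -9.34 and -7.75 without NR replicate 1 or 2). *Lce1f* had 5 and 4.51 CPM in RA and 0 and 0.114 in NR, a ratio of RA to NR with a 95% exact counting interval of 25 to 360.9, and its log2 value was -5.31 without NR replicate 1 and -9.84 without NR replicate 2. *Lce1g* was highest in Veh, with 11.7 and 10.4 CPM there, 3.62 and 2.81 in RA and 0.193 and 0.683 in NR (-2.74, or -4.0 without NR replicate 2). Members of these families are alike in sequence, so reads can be split between them.

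Of 11 placental prolactin and pregnancy-specific glycoprotein genes tested, a family looked at after its values were seen, 10 were called lower in NR and 1 higher, with a median of -3.18. Against Veh the median was -2.24 in NR and 1.03 in RA. The higher one, *Prl3a1*, rested on 3 counts in RA, with an interval of 2.62 to 44.4 for the ratio of NR to RA, and it no longer passed without NR replicate 1 (2.37) or RA replicate 2 (2.33), being 3.76 without RA replicate 1. *Prl2c3* had 9.69 and 10.7 CPM in RA, against 1.2 and 1.06 in NR and 4.26 and 5.78 in Veh (-3.18, SE 0.184). *Prl3d2*, a placental lactogen, had 5.66 and 4.58 CPM in RA and 0.0964 and 0.038 in NR, with an interval of 26.6 to 384.4 for the ratio of RA to NR and a log2 value of -6.88 without NR replicate 1. The groups did not overlap in either gene. All 7 Magea genes tested, X-linked genes of the germ line, were called lower in NR (-1.94 to -1.24), and 9 of 16 Rhox genes, X-linked homeobox genes of germ line and placenta, were lower (5 called) and none higher. Of 15 keratins 4 were higher and 6 lower, with 2 higher when NR replicate 1, NR replicate 2 or RA replicate 2 was left out, *Krt20* (-3.85, or -5.21 without NR replicate 2) and *Krt18* (-2.70) being lower and *Krt24* (5.11) higher.

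**Figure D5:**
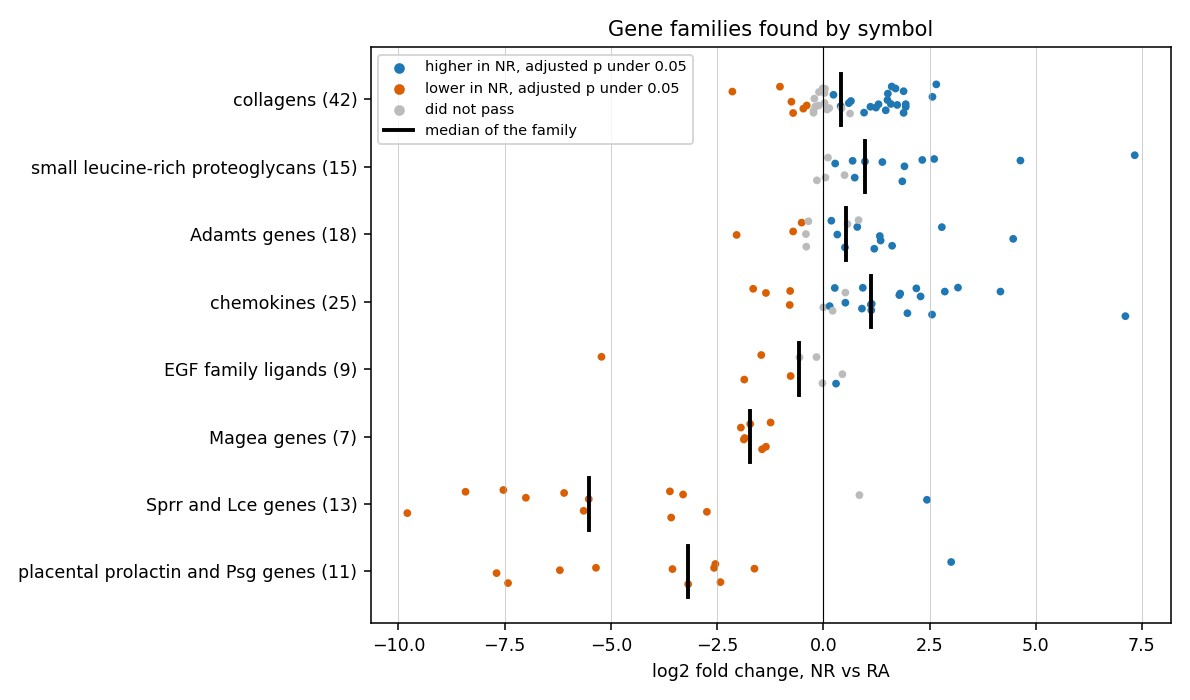
Log2 fold change NR vs RA (x axis) of the members of 8 gene families (rows, with the number tested), 1 point per gene, coloured as in the plot of gene lists, with a bar at the family's median. For genes without counts in 1 group the fitted value is no measured fold. Medians run from -5.52 for the Sprr and Lce genes to 1.12 for chemokines.

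On the X chromosome 67 of 769 tested genes were called lower in NR (8.71%) and 38 higher (4.94%), against 5.51% lower and 6.95% higher on the autosomes. Of 34 Hox genes 13 were lower (4 called) and 11 higher (2 called), with a median of 0.03 that was -0.04 under library totals and -0.03 without NR replicate 2. The called shares were 11.8% lower and 5.88% higher, against 5.62% and 6.87% of all tested genes. *Hoxb1* had 20.8 and 21.3 CPM in RA, against 1.83 and 1.82 in NR and 3.42 and 3.44 in Veh (-3.52, SE 0.128), and *Hoxb13* (-1.90) and *Hoxb6* (-1.08) were called lower, whereas *Hoxd10* (1.64) and *Hoxa10* (1.23) were called higher. Of 2635 long noncoding RNA genes 226 were called higher (8.58%) and 159 lower (6.03%), and of 1494 pseudogenes 44 (2.95%) and 52 (3.48%).

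Most genes of the piRNA pathway were higher in NR. Of 15 genes of the piRNA pathway, which silences transposons, 11 were higher (2 called) and 1 lower, with a median of 0.39. The called share was 13.3%, against 6.87% of all tested genes. *Tdrd5* had 88.7 and 87.5 CPM in NR, 31.5 and 33.3 in RA and 69.6 and 67.4 in Veh (1.44). RA was the low group for this gene. *Tdrd1* was called as well (1.15), *Piwil2* (0.56) and *Mael* (0.54) were higher by less, and *Tdrkh* was lower (-0.25). Of the DNA methyltransferases *Dnmt3a* (0.65) and *Dnmt3l* (0.87) were higher and *Dnmt1* lower (-0.30). The transcription factors *Pou2f2* (1.38) and *Bcl11a* (0.60), which the study names, were higher in NR, although *Bcl11a* no longer passed when NR replicate 1, RA replicate 1 or RA replicate 2 was left out (0.53, 0.54 and 0.67).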

How the data were processed

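Poly(A) RNA of 8 cultures was sequenced, 2 per treatment, and the members and gene lists used here were chosen with earlier results of these data known. The authors deposited 1 table of raw read counts per gene, made with STAR 2.6.1c and featureCounts 1.6.4 on mm10 according to the submitters' processing notes. The strand setting is not given in the sources used here, and they name different library kits, so genes that share exon bases on opposite strands are uncertain.

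Counts were tested with edgeR 4.0.16 (R 4.3.3). Of 55421 genes, 20477 passed filterByExpr and were fitted over all 8 libraries with TMM scaling and the quasi-likelihood F test on 4 residual degrees of freedom, and NR was contrasted with RA. The comparisons with Veh come from the same fit, and both use the same Veh samples. CPM used TMM-scaled totals. A called gene had an adjusted p under 0.05 and a fold of at least 2. Overlaps between genes were taken from the exons of GENCODE M21, which held 55240 of the identifiers. An exact test of 2 against 2 samples cannot go below a p of 0.333, so single genes were tested only in the fit across all genes. A count of 3 was 0.104 to 0.153 CPM in the 4 samples, and counting intervals (95%, exact) and this floor cover counting error only.

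Genes were named by rule: the 15 highest and 15 lowest called protein coding genes that averaged 50 counts or more and whose NR and RA samples did not overlap, the 3 members of each list with the largest change among those that passed, members needed to describe a role, and genes the study names. Members of families looked at after their values were seen, and genes holding a printed motif, fall outside that rule. On counts simulated with the spread of the fit, 200 genes averaging 50 counts or more were made to differ between NR and RA. By adjusted p alone edgeR recovered 99.5% of them with 7 false calls among 20477 genes, and DESeq2 1.42.0 recovered 98.5% with 1 false call. This checks that the code runs correctly and does not measure recovery in the data, where far more genes differed. Alternatives were other scalings, filters and samples in the fit, a replicate block, removal of a GC and length trend, a test against 1.5-fold, DESeq2 and leaving out each library. Drawing used matplotlib 3.10.9. The NRRA samples entered the fit and are not described. Some genes that the naming rule would give are not reported here.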

Additional observations from a re-analysis of the deposited data

How the results depend on the processing

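The number of genes called higher in NR than RA lay between 1134 and 1537 and the number called lower between 908 and 1282 under every alternative that kept a fold threshold. Without a fold threshold they were 5026 and 4873. Leaving out 1 library gave 1298 to 1420 higher and 1037 to 1107 lower. DESeq2 gave 1219 and 958. With library totals as the only scaling, 1272 genes were higher and 1282 lower, so that the share of higher genes among those called was 49.8% in place of 55%.

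The replicate block gave 1393 and 1140 calls. Deviations of NR and RA samples with the same number had a correlation of -0.0405, so the numbers were not taken as a pairing. With a GC and length trend removed the counts were 1396 and 1167, and 1388 and 1162 with the replicate block as well.

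Of 3415 values under an alternative, of 263 genes given by the naming rule or named here, 3355 kept their direction and side of the threshold, 52 no longer passed, 7 newly passed and 1 changed sign (*Sycp1*, which ranged from -0.44 without RA replicate 1 to 0.02 without RA replicate 2). Of 715 list medians 69 moved by more than the spread, 29 of them under library totals, and 25 changed sign. In 20 of these, of 8 lists, the median lay within the typical SE of a member to begin with (ribosome biogenesis, histone and Hox genes among them, histone genes from -0.03 to 0.25 under the stricter filter). The other 5 were 0.02 for the synaptonemal genes without RA replicate 2 (-0.17 without RA replicate 1), -0.01 for DNA methylation without NR replicate 1 (0.15 without NR replicate 2), -0.01 for protein folding under library totals, and 0.00 for the mitochondrial genome with the GC and length trend removed, with and without the replicate block. The cause was not tested. With 2 samples a group the spread of each gene leans on that of all genes.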
